A study of Coturnix japonica with 54 samples.

Results

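POMC, the gene for pro-opiomelanocortin, was followed across a simulated year of day lengths in Japanese quail (Coturnix japonica). It was found by its symbol in both deposited tables, as 1 of 19916 genes in a table of CPM (counts scaled to a fixed library total, called the CPM table here) and as 1 of 16448 genes in a table of estimated counts (the count table). The count table lists it as 2 of 40282 transcripts, NM_001323229.1 and XM_032443213.1, whose counts were also summed. Both transcripts are assigned to POMC in the RefSeq annotation of assembly Coturnix japonica 2.1.

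Pro-opiomelanocortin is a precursor that prohormone convertases cleave into several peptides. In the corticotrophs of the anterior pituitary it yields adrenocorticotropic hormone, the signal that drives the adrenal to release corticosterone in birds. In neurons of the arcuate (infundibular) nucleus of the hypothalamus it yields alpha-melanocyte-stimulating hormone, which lowers food intake through melanocortin receptors, and beta-endorphin, an opioid. AGRP, made by a neighbouring set of arcuate neurons, blocks those receptors.

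The birds were 54 males in 9 photoperiod groups of 6. Each table holds 1 column per sample name, and columns that share a name were taken as the same bird. Days began at 16 h of light, shortened to 8 h and lengthened to 16 h again, with 2 weeks at each step. A group is named by its hours of light and its arm: 16La, 14La, 12La and 10La on the declining (autumnal) arm, 8L at the turning point, and 10Lv, 12Lv, 14Lv and 16Lv on the rising (vernal) arm. All birds carried the same history of 16 h of light before the first step, so each later group had also passed through every earlier day length, and time in the study differs between groups of equal day length. Polyadenylated RNA was sequenced as direct cDNA on Oxford Nanopore flow cells. The labels used here give no age, strain, batch or date and pair no birds between groups.

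Every sample is labelled as mediobasal hypothalamus, and the tables were compared with that label through markers. In the CPM table, 5 of 5 neuronal markers (MAP2, SNAP25, SYT1, STMN2 and ENO2) had reads in every library and summed to 34068 ± 6986 CPM (SD, n = 53), of which MAP2 alone made 33110 ± 6982 CPM, while the hormone genes of pituitary cells were nearly absent: PRL (prolactin) had 39 reads in all libraries together, TSHB 24, GH 4 and FSHB 1. CGA, the glycoprotein hormone alpha subunit, was the exception with 6849 reads. The corticotroph regulators TBX19 and NEUROD1 had 7 and 3 reads. The count table went against its label. It held 36000 counts of PRL, 12442 of CGA, 1486 of POU1F1, 632 of FSHB and 163 of TSHB, while GH, LHB and TBX19 were not listed in it. Its 5 neuronal markers summed to 2089 ± 1727 CPM (n = 54), with 1959 ± 1698 CPM from MAP2, and the arcuate genes AGRP, NPY and CARTPT had 10, 32 and 4 counts. The tables were therefore read apart, as a hypothalamic profile and as a profile rich in pituitary hormone transcripts, and no level was tested for a difference between them. In such bulk samples, fewer cells of a type and less RNA per cell cannot be told apart.

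Depth differed widely. Behind the CPM table stood 251382 to 1895615 recovered reads a library (median 938816). Of its libraries 9, 1 in each group, had 379260 reads or fewer, and all others had 626001 or more. They were replicate 2 of 16La, replicate 1 of 16Lv and replicate 3 of every other group. The labels do not say whether these libraries were handled together, and no fit or test had a term for it. The totals of the count table ranged from 4834 to 156500 (median 39688), and 9 of its libraries had fewer than 2000 genes detected: 12La replicate 5, 10La replicate 2, 8L replicate 5, 10Lv replicate 5, 12Lv replicates 5 and 6, 14Lv replicate 5, and 16Lv replicates 1 and 3. In the CPM table, the columns of 16Lv replicates 3 and 6 differed less than resampling the same reads would make them differ, and their mean was counted as 1 sample (n = 5 in that group, 53 libraries in all).

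In the hypothalamic profile POMC was a low transcript found in every library, with 1354 reads in all, 2 to 66 per library. Its median was lowest in the starting group at 16 h of light and highest in 10La, and the medians of 14La and 16Lv lay next above that of the starting group. In 16La, the starting group, the 6 birds ran from 5.25 to 24.8 CPM with a median of 10.7. In 14La they ran from 12.4 to 34.3 CPM (median 14.5), and in 12La from 10.8 to 47.9 CPM (median 27.9). In 10La, where each bird stood above all 16La birds, POMC ran from 28.3 to 57.0 CPM with a median of 39.3.

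The 8L group was the most scattered, from 5.31 to 74.6 CPM around a median of 33.1. Its lowest bird, replicate 3, rests on 2 POMC reads in a library of 376519 reads, which gives an exact 95% Poisson interval of 0.643 to 19.2 CPM. The next lowest 8L bird was at 27.3 CPM. On the rising arm the birds ran from 23.0 to 51.9 CPM in 10Lv (median 37.4) and from 17.4 to 48.6 CPM in 12Lv (median 35.3). In 14Lv they ran from 13.8 to 45.6 CPM (median 26.1), and in 16Lv from 15.01 to 24.8 CPM (median 15.6), back within the range of the starting group.

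**Figure D1:**
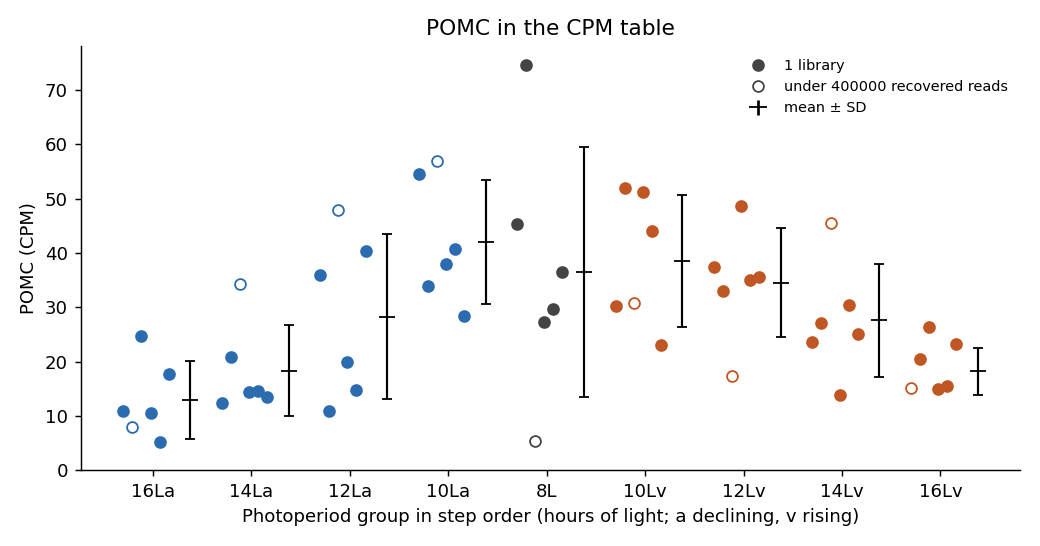
POMC in CPM (vertical axis) in each library of the hypothalamic CPM table, by photoperiod group in step order (horizontal axis). Points are libraries, open where under 400000 reads were recovered, and bars are the mean ± SD with 16Lv replicates 3 and 6 drawn apart but counted as 1 in the mean; the means climb from 12.9 CPM in 16La to 42.1 CPM in 10La and come down to 18.2 CPM in 16Lv, with 1 open point of 5.31 CPM in 8L.

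Ordered by mean, the levels in the CPM table were 12.9 ± 7.17 CPM in 16La, 18.2 ± 4.34 in 16Lv, 18.3 ± 8.37 in 14La, 27.6 ± 10.4 in 14Lv and 28.3 ± 15.2 in 12La, then 34.5 ± 10.0 in 12Lv, 36.5 ± 23.0 in 8L, 38.5 ± 12.1 in 10Lv and 42.1 ± 11.4 in 10La (SD, n = 6, with n = 5 in 16Lv). No 2 neighbours in this order differed by more than the larger of their SDs, and the ranges of all neighbours overlapped. Of the 36 pairs of groups, 2 did not overlap: 10La lay above 16La (28.3 CPM at the lowest against 24.8 at the highest) and above 16Lv (also 24.8 at the highest). Part of the spread is counting error, which alone would give SDs of 4.05 CPM in 16La, 5.28 in 16Lv and 6.07 in 8L. The observed SD in 16Lv was below that figure and the one in 8L was well above it.

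Across the 9 groups POMC in the hypothalamic profile had a negative slope on hours of light, but its medians did not fall steadily from 8 h. The median was 33.1 CPM in 8L, below 39.3 in 10La and 37.4 in 10Lv. Neither difference was detected (exact permutation tests, p = 0.461 for 8L minus 10La and 0.636 for 10Lv minus 8L, adjusted 0.909 for each). Without the 9 libraries under 400000 reads 8L had the highest mean, 42.7 CPM. Its median of 36.5 CPM stayed below 37.9 in 10La and 44.0 in 10Lv. The slope was -0.17 on the scale of log2(CPM + 1) per hour of light over 53 libraries (permutation test, two-sided, p = 4e-05, and 0.00136 after adjustment over the 34 single-gene tests of both tables). The 9 groups differed among themselves (F = 4.26, permutation p = 0.00086, adjusted 0.0146). Both adjustments cover only those 34 tests, and POMC was chosen with earlier results of these data known. The slope passed in each of the 5 other settings tried, with adjusted p from 0.00017 to 0.00952 in permutation tests. These settings include leaving out the 9 libraries under 400000 reads, which was chosen after seeing the data. The difference among groups passed in 4 of 5, and missed without the 6 shallowest libraries (F = 3.27, permutation, adjusted p = 0.0542).

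None of the single steps or pairs of groups tested passed in the same way. The 8L mean was 1.27 higher than the 16La mean on the log2 scale (exact permutation test, p = 0.0584, adjusted 0.423, where the smallest p the design allows is 0.00216). That comparison turns on 8L replicate 3: without it the difference was 1.72 (exact permutation test, adjusted p = 0.0368). From 8L to 16Lv the change was -0.67 (exact permutation test, p = 0.275, adjusted 0.673), and 16Lv stood 0.60 above 16La (exact permutation test, p = 0.128, adjusted 0.482). Birds of the rising arm were 0.28 higher than birds of the declining arm at 10, 12 and 14 h of light (permutation test within day lengths, n = 18 and 18, p = 0.146, adjusted 0.496). By day length that difference was -0.14 at 10 h, 0.40 at 12 h and 0.57 at 14 h, with adjusted p of 0.909, 0.722 and 0.423 in exact permutation tests, so no difference between the arms was detected.

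Set against all genes, the limma fit of the CPM table called POMC in none of its comparisons. It gave a slope of -0.16 per hour (SE 0.0346, unadjusted p = 4.35e-05), which ranked 2 of 8268 genes by p, yet its Benjamini-Hochberg adjusted p over all genes was 0.18 and 0% of genes were called for the slope. For 8L minus 16La POMC ranked 3 of 8268 genes by p with a log2 change of 1.28 (SE 0.378, limma adjusted p = 0.999, 0% of genes called). For the difference among the 9 groups it ranked 12 (limma adjusted p = 0.513, 0.0363% of genes called). POMC was not called in 16Lv minus 16La (limma adjusted p = 0.891, 0.0242% of genes called) or in rising minus declining (limma adjusted p = 0.999, 0.0121% called). For the slope and for 8L minus 16La the fit called 0 genes, against 412 and 343 at an unadjusted p under 0.05.

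The call on the slope depended on the fit. On the reads recovered from the CPM values POMC passed with limma-voom (log2 slope -0.17, adjusted p = 0.0404), with edgeR (-0.18, 0.0141) and with DESeq2 (-0.18, 8.91e-05), which called 0.0121%, 0.0121% and 0.0847% of genes for the slope. With limma it also passed without the 9 libraries under 400000 reads, an alternative chosen after seeing the data (-0.18, adjusted p = 0.00225), and without 8L replicate 3 alone (-0.19, adjusted p = 0.00095). Without that 1 bird limma also called POMC in 8L minus 16La (1.73, adjusted p = 0.0389) and in the difference among groups (adjusted p = 0.0200). Over the 11 steps and same-day-length pairs limma called POMC in 0, with 0 at an unadjusted p under 0.05 and 0 to 0.0121% of all genes called per comparison, and limma-voom, edgeR and DESeq2 also called it in 0. At an unadjusted p under 0.05 there were 2 of the 11 with limma-voom. There were 3 with limma without the 9 libraries under 400000 reads, where POMC was also called in 0.

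Without the 9 shallow libraries the order of means became 13.9 ± 7.55 CPM in 16La, 15.1 ± 3.35 in 14La, 18.98 ± 4.60 in 16Lv, 24.0 ± 6.23 in 14Lv and 24.3 ± 13.1 in 12La, followed by 37.9 ± 6.18 in 12Lv, 39.1 ± 9.79 in 10La, 40.04 ± 12.9 in 10Lv and 42.7 ± 19.2 in 8L (n = 5, with n = 4 in 16Lv). In that order the gap of 13.6 CPM between 12La and 12Lv was the only one between neighbours that exceeded the larger SD, and their ranges still overlapped.

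**Figure D2:**
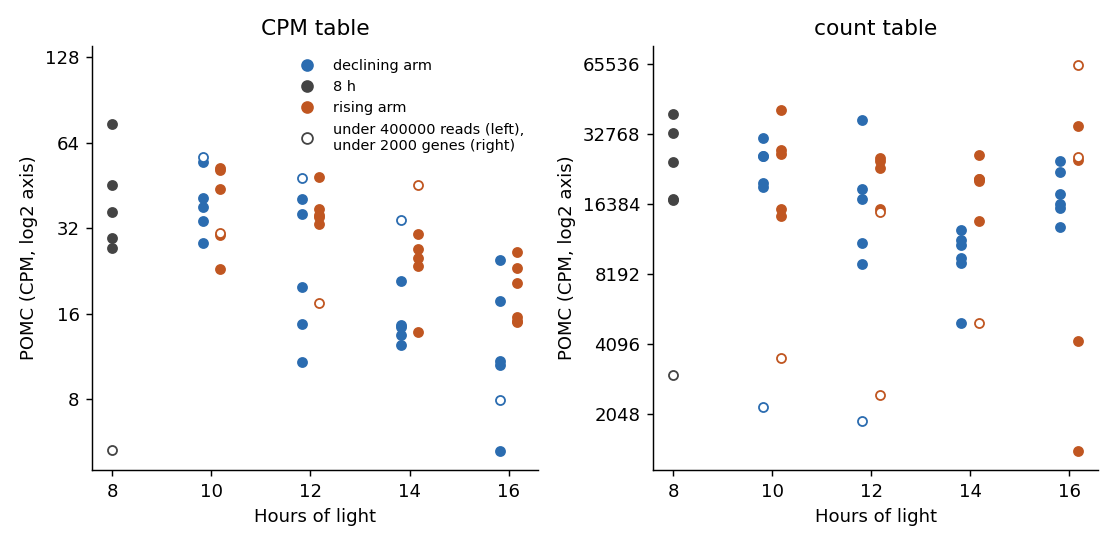
POMC in CPM on a log2 axis against hours of light, in the CPM table (left) and the count table (right), with 1 point per library and the arm of the cycle in colour. In the left panel the slope over 8 to 16 h is -0.17 log2 units per hour, but the medians of 10La and 10Lv lie above that of 8L. No difference of 8L from 10La or 10Lv was detected. The open point at 5.31 CPM is 8L replicate 3. In the right panel the open points are libraries with fewer than 2000 genes, 6 of which lie low.

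In the profile rich in pituitary transcripts POMC was one of the most abundant genes. It held 51567 counts, 1.94% of all counts and rank 5 of 16448 genes, with 29 to 5875 counts per library. The starting group 16La ran from 13005 to 25135 CPM with a median of 17212. In 14La the 6 birds ran from 5023 to 12646 CPM (median 10214), all below the lowest 16La bird. In 12La they spanned 1911 to 37540 CPM (median 14160).

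The other groups overlapped widely. POMC ran from 2195 to 31341 CPM in 10La (median 23126), from 3000 to 39961 in 8L (median 20935), and from 3558 to 41637 in 10Lv (median 21189). In 12Lv it ran from 2477 to 25735 CPM (median 19368), in 14Lv from 5054 to 26440 (median 20722), and in 16Lv from 1421 to 64543 (median 25676). Counting error would give SDs of 405 to 1684 CPM in these groups, far below the SDs between birds of 2656 to 23041 CPM.

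**Figure D3:**
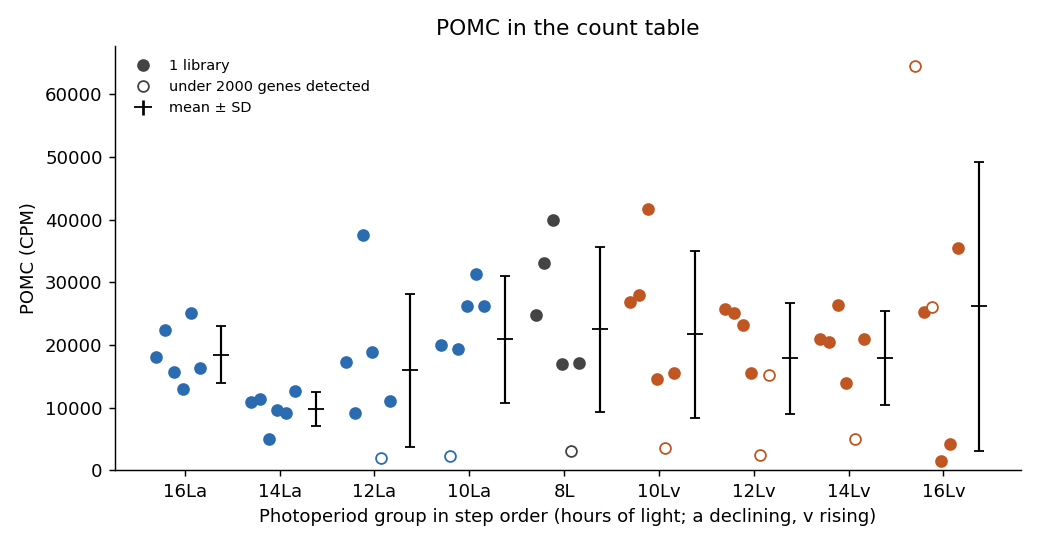
POMC in CPM (vertical axis) in each library of the count table, by photoperiod group in step order (horizontal axis), with bars for the mean ± SD. Open points are the 9 libraries with fewer than 2000 genes detected; all 14La birds lie at or below 12646 CPM, and 16Lv spans 1421 to 64543 CPM.

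Most of the low values came from the libraries with few genes. Of those 9 libraries, 6 held between 1911 and 5054 CPM of POMC, and the other 3 held 15179, 26049 and 64543 CPM. The highest of all, 16Lv replicate 1, came from the smallest library, with 312 POMC counts among 4834. ACOT9, which took 31.3 ± 11.3% of the counts per library (SD, n = 54), took 27.2 to 68.6% in these 9 libraries against a median of 26.3% in the rest. The rest ran from 11.2% in 14Lv replicate 1 to 49.3% in 16La replicate 4, so the ranges overlapped. Low POMC was not confined to them: 16Lv replicates 4 and 5, with 1421 and 4223 CPM, and 14La replicate 3, with 5023 CPM, had 2000 genes or more.

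**Figure D4:**
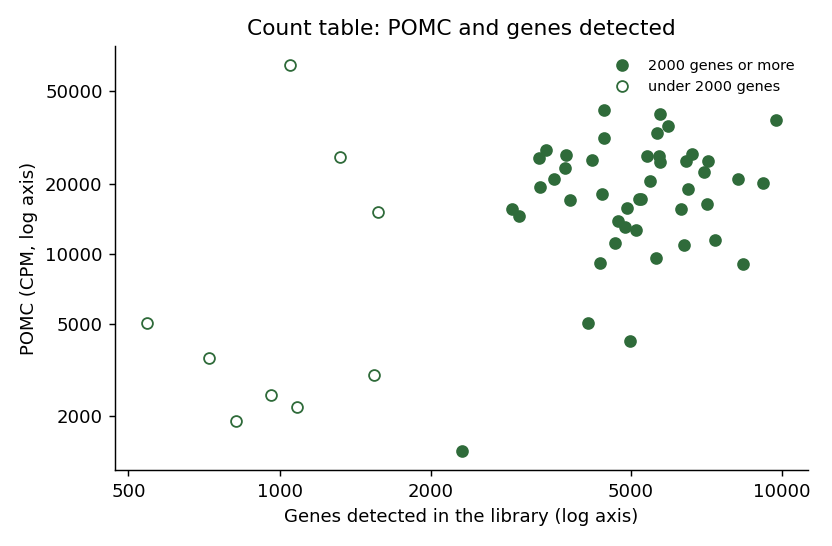
POMC in CPM (vertical, log axis) against the number of genes detected (horizontal, log axis) in the 54 libraries of the count table. The 9 libraries with fewer than 2000 genes (open) stand apart on the left, 6 of them between 1911 and 5054 CPM; the single filled point at the bottom is 16Lv replicate 4 at 1421 CPM.

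The order of means in the count table was 9770 ± 2656 CPM in 14La, 15952 ± 12200 in 12La, 17863 ± 8856 in 12Lv, 17962 ± 7480 in 14Lv and 18448 ± 4528 in 16La, then 20878 ± 10185 in 10La, 21672 ± 13271 in 10Lv, 22474 ± 13112 in 8L and 26174 ± 23041 in 16Lv (SD, n = 6). No neighbours differed by more than the larger SD. Without the 9 libraries the means were 9770 CPM in 14La, 16613 in 16Lv, 18448 in 16La, 18760 in 12La, 20544 in 14Lv, 22381 in 12Lv, 24615 in 10La, 25294 in 10Lv and 26369 in 8L. That moved 16Lv from the highest mean to the second lowest.

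The first shortening of the day was the only comparison of the count table to pass the single-gene test. POMC fell by 0.94 on the log2 scale from 16La to 14La (exact permutation test, two-sided, p = 0.00216, the smallest the design allows, adjusted 0.0245), and this was the only pair of the 36 that did not overlap. The difference missed the threshold with TMM-scaled CPM (-0.83, exact permutation, adjusted p = 0.0981). It passed with a library size less ACOT9, PRL and CGA, a setting in which edgeR did not call POMC. In the edgeR fit across all genes the change was -0.80 (SE 0.53, adjusted p = 1), and that fit called 0% of 826 genes in this comparison. The summed level of 5 hormone-cell genes other than POMC (PRL, CGA, FSHB, TSHB and POU1F1) was 31487 ± 5478 CPM in 14La against 24733 ± 8155 CPM in 16La (n = 6), and its part in the difference was not tested.

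No trend with day length was detected in the count table over all 54 libraries. The slope was -0.03 log2 units per hour (permutation p = 0.668, adjusted 0.909), and no difference among the 9 groups was detected (F = 0.355, permutation p = 0.943, adjusted 0.974). Without the 9 libraries with few genes, an alternative chosen after seeing the data, the slope was -0.14 (permutation, adjusted p = 0.026) and 14Lv exceeded 14La by 1.10 (exact permutation test, adjusted p = 0.0184). The difference among groups then remained short of the threshold (F = 2.59, permutation, adjusted p = 0.121).

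The edgeR fit called POMC in none of the comparisons of the count table. For the slope it gave -0.03 (SE 0.0472, adjusted p = 1, 0.605% of genes called), for 8L minus 16La 0.17 (SE 0.526, adjusted p = 0.998, 0.484% called), and for the difference among groups an adjusted p of 1 (0.484% called). The change from 8L to 16Lv was 0.04 (SE 0.527, edgeR adjusted p = 0.999, 0.242% called), and 16Lv minus 16La was 0.20 (SE 0.527, edgeR adjusted p = 0.998, 0% called). The median over all 826 genes was itself -0.27 and -0.28 in those last comparisons. For rising minus declining it was -0.18, beside 0.21 for POMC (SE 0.304, edgeR adjusted p = 0.982, 0.121% called). Over the 11 steps and same-day-length pairs edgeR called POMC in 0, with 0 at an unadjusted p under 0.05 and 0 to 0.363% of all genes called per comparison, and DESeq2 and limma-voom also called it in 0. In edgeR fits of only the groups compared, 1 of the 11 was at an unadjusted p of 0.00878. With no filter 1 was at an unadjusted edgeR p of 0.0273, and POMC was called in neither setting.

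Both POMC transcripts were present in every library of the count table. NM_001323229.1 held 23007 counts and XM_032443213.1 held 28560, or 44.6% and 55.4% of POMC counts. The share of XM_032443213.1 ran from 46.4 to 71.2% with a median of 55.6%, and it was the larger in 45 of 54 libraries. By group its mean lay between 53.1 ± 5.96% in 14Lv and 58.5 ± 7.30% in 16La (SD, n = 6). No difference in the share among the 9 groups was detected (F = 0.779, permutation p = 0.624), nor was one without the 9 libraries with few genes (F = 0.957, permutation p = 0.485). The counts were estimated by the authors' tool from reads that can match both transcripts, so the split is less certain than the sum.

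**Figure D5:**
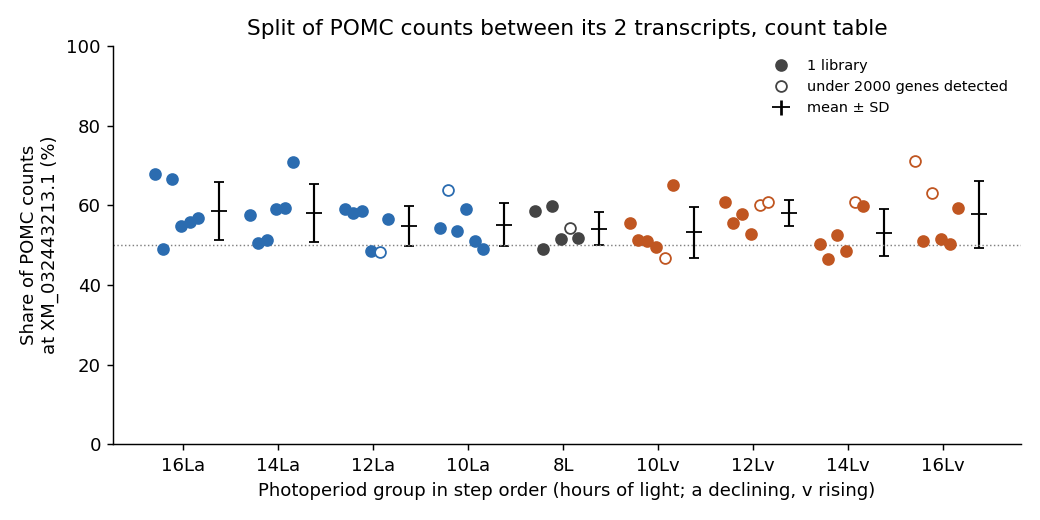
Share of POMC counts assigned to XM_032443213.1 in percent (vertical axis) in each library of the count table, by photoperiod group (horizontal axis), with bars for the mean ± SD and open points for libraries with fewer than 2000 genes. The shares run from 46.4 to 71.2%, and the group means lie between 53.1 and 58.5%.

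Fitted alone, the transcripts moved the same way in some comparisons and opposite ways in others. From 16La to 14La they changed by -0.87 (SE 0.53) and -0.83 (SE 0.549), and for 8L minus 16La by 0.27 (SE 0.526) and 0.08 (SE 0.545), for NM_001323229.1 and XM_032443213.1 respectively. For 14Lv minus 14La the changes were 0.94 (SE 0.532) and 0.60 (SE 0.549) in the same order. They had opposite signs for 16Lv minus 8L (-0.15 and 0.36), 14Lv minus 12Lv (0.23 and -0.07) and 10Lv minus 8L (0.06 and -0.01), each smaller than its SE. None of these passed edgeR's test across transcripts, with adjusted p of 0.982 or more.

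POMC stood at different ratios to the pituitary hormones in the 2 profiles. The CPM table held 34.7 POMC reads per PRL read (95% interval from counting error 25.4 to 48.8), and the other profile held 1.43 (1.42 to 1.45). For POU1F1, the regulator of prolactin cells, the ratios were 113 (64.6 to 218) and 34.7 (33.0 to 36.5). For CGA the order was the opposite, 0.198 (0.193 to 0.202) against 4.14 (4.07 to 4.22). The ratio to AGRP, a gene of arcuate neurons, was 1.79 (1.67 to 1.93) in the hypothalamic profile and 5157 (2804 to 10753) in the other. These ratios are reads per gene with no correction for length, and the tables were made separately. The reads were summed over all libraries, so the intervals leave out the spread between birds and between groups.

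Columns of the same sample name were taken as the same bird and compared between tables. That they come from the same bird was not tested. The joined CPM columns of 16Lv replicates 3 and 6 were set against the mean of these birds in the count table. Over all 53 birds no relation of log2 POMC was detected (Pearson r = 0.074, permutation p = 0.597, adjusted over 10 relations 0.746, and Spearman rho = 0.214, permutation p = 0.124, adjusted 0.282), and r was -0.0163 without the 2 birds farthest from the median. A relation passed only in a subset chosen after seeing the data. It held the 36 birds whose libraries stood apart in neither table, and the joined 16Lv replicates 3 and 6 were also left out. Over these 36 birds log2 POMC in one table rose with log2 POMC in the other (r = 0.43, permutation p = 0.00855, adjusted 0.0427, and rho = 0.54, permutation p = 0.00071, adjusted 0.0058). Without the 2 of these farthest from the median r was 0.476. As deviations from group means r was 0.167 over the 36 (permutation p = 0.233, adjusted 0.338) and 0.0412 over all 53 (permutation p = 0.778, adjusted 0.988), so no relation between birds of the same group was detectable. In the CPM table no relation was detected between POMC and the summed level of PRL, GH, CGA, FSHB and TSHB (r = 0.243 over 53 birds, permutation p = 0.0794, adjusted 0.265, rho = 0.271, permutation p = 0.0497, adjusted 0.166), or between POMC and the number of recovered reads (r = -0.0497, permutation p = 0.724, adjusted 0.805, rho = -0.158, permutation p = 0.255, adjusted 0.282). Without the 2 birds farthest from the median these values of r were 0.272 and -0.206. The summed hormone level was nearly all CGA, at 143 ± 70.1 CPM (SD, n = 53). It says little about PRL, TSHB, GH and FSHB, which had 39, 24, 4 and 1 reads.

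In the count table POMC was compared with PRL. Over all 54 libraries r was 0.437 (permutation p = 0.00098, adjusted 0.0049) and rho was 0.197 (permutation p = 0.152, adjusted 0.282), and r was 0.399 without the 2 libraries farthest from the median. In the 45 libraries with 2000 genes or more that call was lost: r was -0.0118 (permutation p = 0.939, adjusted 0.939) and rho was -0.149 (permutation p = 0.329, adjusted 0.374). As deviations from group means POMC rose with PRL in both sets. Over all 54, r was 0.814 (permutation p = 1e-05, the smallest that the resamples can give, adjusted 5e-05), and over the 45, r was 0.625 and rho 0.623 (permutation p = 0.00014 for each, adjusted 0.0014 for each). Without the 2 libraries farthest from the median the deviations of the 45 gave r = 0.596. POMC and PRL are shares of the same library total, which alone can move both together. How much of r comes from that was not tested. Among the 825 genes ranked by likeness below, the median r with POMC was 0.25 over all 54 libraries. That median is of pooled r on TMM-scaled CPM, whereas r with PRL used library-total CPM. No such median was computed for deviations from group means. With CGA, r was -0.0191 over all 54 (permutation p = 0.891, adjusted 0.891), and it was -0.259 across the 45 libraries (permutation p = 0.0859, adjusted 0.215) and -0.0237 as deviations (permutation p = 0.936, adjusted 0.936). POMC was lower where ACOT9 took more of the library. Both are shares of the same total, of which ACOT9 took 31.3 ± 11.3% (SD, n = 54). A larger share of ACOT9 therefore lowers the CPM of other genes by itself. No relation was computed with a total that leaves ACOT9 out, so these values cannot separate that effect from a change in POMC. Over all 54 libraries r was -0.634 (permutation p = 1e-05, adjusted 0.0001) and rho was -0.575 (permutation p = 2e-05, adjusted 0.0002), with r of -0.537 without the 2 farthest from the median, and as deviations from group means r was -0.646 (permutation, adjusted p = 5e-05). Over the 45, r was -0.427 (permutation p = 0.00313, adjusted 0.0313) and rho was -0.483 (permutation p = 0.00116, adjusted 0.0058), with r of -0.449 without the 2 farthest. As deviations over the 45, r was -0.366 and missed the threshold (permutation, adjusted p = 0.064). With total counts r was 0.204 over all 54 (permutation p = 0.14, adjusted 0.321), 0.362 without the 2 farthest from the median (permutation, adjusted p = 0.028) and 0.0993 over the 45 (permutation, adjusted p = 0.628). Group differences were also tested with a library size less ACOT9, PRL and CGA, where 14La minus 16La still passed the single-gene permutation test. The part of ACOT9 alone in the differences between groups was not tested.

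The rest of the POMC system was read from 7 lists of 50 genes. Of these, 45 were present in the CPM table and 24 passed the filter on low values. limma called 0 of the 24 in each of the 6 main comparisons, with 2 to 6 of them at an unadjusted p under 0.05. The 6 were AGRP, AVP, CRHBP, FKBP5, NPY and PRCP in the difference among the 9 groups, where 304 of all 8268 genes (3.68%) were at such a p. In the slope 3 members were, beside 4.98% of all genes, and in rising minus declining 4, beside 4.83%. It was 2 in 8L minus 16La, 3 in 16Lv minus 8L and 2 in 16Lv minus 16La, beside 4.15%, 5.29% and 5.73% of all genes. DESeq2 on the recovered reads called 2 of the 24 for the slope, AGRP and FKBP5, beside 7 of 8267 genes (0.0847%), and limma-voom and edgeR called 0. The count table held 38 of them, and 2 passed its filter, CPE and PAM. There edgeR, DESeq2 and limma-voom called neither, with 0 at an unadjusted p under 0.05 in edgeR, beside 33 to 54 of all 826 genes. CPM values of different genes are not corrected for length, and levels are therefore given gene by gene (mean ± SD in the CPM table, n = 53).

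Among the genes that process the precursor, the convertases PCSK1 and PCSK2, which cut it at pairs of basic residues, were at 7.65 ± 3.52 and 39.02 ± 13.0 CPM. CPE, which trims the cut ends, was at 85.9 ± 18.7 CPM, and PAM, which amidates peptides, at 203 ± 80.2 CPM. SCG5, the chaperone of PCSK2, was at 423 ± 94.2 CPM, and PRCP, which degrades alpha-melanocyte-stimulating hormone in mammals, at 15.3 ± 9.33 CPM. All 6 were tested and 0 were called, and their median slope was 0.00228 log2 units per hour, beside -0.00129 over all genes.

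Among the receptors, MC3R and MC4R, the melanocortin receptors of the brain, were at 1.23 ± 1.33 and 2.73 ± 1.84 CPM, and MC5R was at 3.09 ± 2.15 CPM. MC1R, the pigment cell receptor, had 2 reads. MRAP2, which modulates melanocortin receptors, was at 10.0 ± 10.1 CPM and alone of this list passed the filter. The opioid receptors OPRM1, OPRD1 and OPRK1 were at 7.32 ± 4.49, 1.31 ± 1.67 and 5.31 ± 5.23 CPM.

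AGRP, the antagonist, had the steepest slope of the 24 genes, opposite in sign to that of POMC and not called by limma. Its level in 16La ran from 10.5 to 73.2 CPM (median 26.9), in 8L from 1.56 to 26.004 (median 7.64), and in 10Lv from 0 to 7.99 (median 6.01). In 16Lv it ran from 6.02 to 113 CPM (median 15.01). The lowest AGRP medians were at 12 h, 3.33 CPM in 12La and 3.40 in 12Lv, and the median in 10La was 8.88. In 14La and 14Lv the medians were 25.5 and 18.4 CPM, so AGRP did not rise steadily from 8 to 16 h. Its slope was 0.32 log2 units per hour (SE 0.0707, unadjusted p = 3.97e-05, limma adjusted p = 0.18), against -0.16 for POMC. Across the 53 birds POMC and AGRP had r = -0.196 (permutation p = 0.16, adjusted 0.321) and rho = -0.314 (permutation p = 0.0217, adjusted 0.108), and r was -0.231 without the 2 birds farthest from the median. Without the 9 shallow libraries r was -0.23 (permutation, adjusted p = 0.227) and rho passed at -0.373 (permutation p = 0.0126, adjusted 0.0421, n = 44), and also without the 2 farthest of those birds rho was -0.46 (permutation, adjusted p = 0.00877). As deviations from group means r was 0.245 (permutation p = 0.127, adjusted 0.267). ATRN, an accessory receptor of the agouti protein in mammals, was at 93.1 ± 18.4 CPM.

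Of the arcuate partners, NPY, an appetite-raising peptide of the AGRP neurons, was at 170 ± 57.4 CPM, and CARTPT, an appetite-lowering peptide, at 13.2 ± 11.04 CPM. No relation of POMC with either was detected across the 53 birds. For NPY r was 0.138 (permutation p = 0.323, adjusted 0.461) and rho 0.187 (permutation p = 0.181, adjusted 0.282). For CARTPT r was -0.142 (permutation p = 0.311, adjusted 0.461) and rho -0.15 (permutation p = 0.282, adjusted 0.282). Without the 2 birds farthest from the median these values of r were 0.0969 and -0.086. INSR, the insulin receptor, was at 12.3 ± 5.70 CPM and HTR2C, a serotonin receptor of POMC neurons in mammals, at 6.48 ± 5.25 CPM.

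Among regulators of POMC transcription, ISL1, a factor needed for hypothalamic POMC neurons in mice, was at 8.68 ± 4.83 CPM. NKX2-1, a factor of the ventral hypothalamus, was at 74.6 ± 32.0 CPM, and STAT3, which relays the leptin signal, at 20.3 ± 13.7 CPM. NR3C1, the glucocorticoid receptor, was at 28.3 ± 8.34 CPM and FOXO1, a repressor of POMC in mice, at 5.02 ± 2.62 CPM. NR5A1 was at 2.02 ± 2.98 CPM and PITX1 at 1.01 ± 2.99 CPM. The slopes of ISL1, NKX2-1, NR3C1 and STAT3 lay between -0.06 and 0.06.

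Of the stress axis, AVP, the gene for vasotocin in birds, was at 523.4 ± 567.5 CPM, CRHBP, the binding protein of corticotropin-releasing hormone, at 25.3 ± 11.6 CPM, and the receptor CRHR2 at 13.7 ± 7.82 CPM. UCN3, a ligand of that receptor, was at 2.53 ± 3.34 CPM and HSD11B2, which inactivates corticosterone, at 3.06 ± 3.06 CPM. FKBP5, a glucocorticoid-induced co-chaperone, was at 23.2 ± 18.2 CPM with a slope of 0.18 (SE 0.0697, limma adjusted p = 0.94).

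In the count table, members of the same lists rest on few counts beside POMC. CPE had 605 counts and a level of 226 ± 119 CPM, and PAM had 533 counts at 203 ± 201 CPM (SD, n = 54). Their slopes were -0.02 (SE 0.0484) and 0.03 (SE 0.0796), with edgeR adjusted p of 1 for each. NEUROD1, a corticotroph factor in mammals, had 115 counts in 37 of 54 libraries, AVPR1B, the vasotocin receptor of corticotrophs, 80 in 35, and CRHR1, the receptor for corticotropin-releasing hormone, 35 in 11. NR3C1 had 258 counts, FKBP5 205, NR5A1 166, ISL1 160, CTSL 98 and PITX1 97, and STAT3 was at 39.8 ± 71.6 CPM. PCSK1 and PCSK2 had 42 and 40. The remaining members reported here at 1 CPM or more had 37 counts or fewer.

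The genes whose levels over libraries were most like those of POMC were named by Pearson r, as a description without a test. In the CPM table (53 libraries, 8267 genes) these were GAL, the neuropeptide galanin (r = 0.55), ACCSL (0.54), LOC107052653 (0.53), LOC101750611 (0.52) and ISL1 (0.51), while the central 95% of genes lay between -0.27 and 0.32. Among the most opposite were OPRL1, the nociceptin receptor (-0.50), PCP4 (-0.49) and WARS (-0.47). In the count table (54 libraries, 825 genes) the median r was 0.25 and the central 95% lay between -0.30 and 0.52. There SMARCA2 (0.66), RHEX (0.66), TSC22D1 (0.64), CCNI (0.63) and IL1R2 (0.62) were most alike. ACOT9 (-0.55), RPS15A (-0.55), LOC107307159 (-0.53), LOC107315938 (-0.44) and RPS3 (-0.39) were most opposite. The libraries with few genes enter these count-table values. Over the 9 group means r had the other sign for CCNI (-0.16), IL1R2 (-0.06), RPS15A (0.48) and RPS3 (0.13). The other genes named here kept their sign over those means.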

How the data were processed

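Direct cDNA libraries of 54 quail were sequenced on Oxford Nanopore flow cells, per the labels. The authors deposited a table of CPM per gene, whose columns each sum to 1000000, and a table of estimated counts (expected counts, not normalised) per transcript. Salmon 0.14.2, edgeR 3.24.3 and minimap2 2.17 were used, per the submitters' processing notes. Their order and roles, like the genome build, were not given in the sources used here, so no coordinates are printed.

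Among the CPM rows, 14 names turned into dates were left out. Low CPM values are whole multiples of 1 value per column, and dividing by it gave the recovered reads (99.7 to 100% of values whole within 0.1 read; in some columns this is only approximate). A read counted at several genes enters more than once. CPM were scaled by TMM and tested as log2(CPM + 1) with limma 3.58.1 in 1 fit of 9 group means, over genes with at least 10 CPM in at least 6 libraries. Fold changes on that scale understate those of low genes. Estimated counts were summed per gene, rounded to whole numbers and tested with edgeR 4.0.16 (quasi-likelihood, TMM, filterByExpr with a minimum count of 10). p-values were adjusted over all genes by Benjamini-Hochberg, with a threshold of 0.05. POMC alone was tested by permutation of log2(library-total CPM + 1), exact for pairs of groups and with 100000 resamples otherwise, adjusted over 34 tests. Levels and fold changes were tested within a table only, and POMC was correlated between tables over birds matched by sample name. The p-values measure the spread between libraries of different birds, which includes spread from depth and handling.

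Data were simulated for 8L minus 16La. Of genes changed 4-fold, 69% were recovered among the 8268 genes of the CPM table and 25% among the 826 of the count table. In each simulation 100 genes were changed 4-fold and another 100 genes 8-fold. The fits then called 153 and 63 genes, against 0 and 4 for 8L minus 16La in the real data. More changed genes loosen the Benjamini-Hochberg cut-off, so these rates do not give the sensitivity of the real fits. Alternatives were pseudocounts, scalings, filters, limma-voom, edgeR, DESeq2 1.42.0, near-identical columns kept apart, fits of only the groups compared, and leaving out libraries. Counting intervals are exact 95% Poisson or binomial intervals and cover counting error only. Columns of a group were called near-identical where their reads gave a chi-square per degree of freedom under 1.2 (0.954 for the 1 pair found, 6.25 for the next). POMC is named in every result, list members by their level of 1 CPM or more, and the 5 genes most and least like POMC by r; some genes these rules pick are not reported here. The gene, the lists and the tests were chosen with earlier results of these data known.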

Additional observations from a re-analysis of the deposited data

How the results depend on the processing

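No paired analysis was made, because the labels pair no birds and the replicate numbers follow accession order. The 9 libraries under 400000 reads were left out in some alternatives but were not fitted as a set of their own. In the CPM table the direction of POMC held under every alternative for the slope, rising minus declining, and the pairs among 16La, 8L and 16Lv. Its adjusted p over all genes moved across the threshold. With the slope per hour it passed under limma-voom (-0.168), edgeR (-0.176), DESeq2 (-0.178) and without the 9 libraries under 400000 reads (-0.181), and in the difference among groups under DESeq2 (adjusted p = 0.00166) and without those 9 (adjusted p = 0.0253). Leaving out each replicate in turn gave 1.04 to 1.73 for 8L minus 16La, -0.188 to -0.139 for the slope and adjusted p of 0.0200 to 0.999 for the difference among groups, and each was called only without 8L replicate 3. The reads behind POMC there, 2 to 66 per library, limit single-library values, and the depth of the count table limits its genes other than POMC.

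In the count table no fit called POMC, and the sign of small changes varied, for reasons that were not tested. For 8L minus 16La it turned negative with no filter (-0.109), limma-voom (-0.112) and limma-trend (-0.0864). For 16Lv minus 8L it turned negative with no filter (-0.294), limma-voom (-0.31), limma-trend (-0.416), without the 6 smallest libraries (-0.454), without the 9 libraries under 2000 genes (-0.666) and for NM_001323229.1 alone (-0.149). For 16Lv minus 16La the same first 5 settings gave -0.403, -0.422, -0.502, -0.366 and -0.371, and rising minus declining gave -0.0878 with no filter. Leaving out each replicate gave -0.121 to 0.332, -0.193 to 0.406 and -0.09998 to 0.502 for those 3 pairs in order.

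In the permutation tests of the CPM table, 10Lv minus 10La became 0.00238 without the 6 shallowest or the 9 shallow libraries, 8L minus 10La became 0.0619 and 10Lv minus 8L became -0.0595 without the 9, and F became 3.27 without the 6, short of the threshold. Leaving out each replicate gave 0.999 to 1.72 for 8L minus 16La, -0.11 to 0.606 for 10Lv minus 8L and -0.284 to 0.0253 for 12Lv minus 10Lv.

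In the permutation tests of the count table, 14La minus 16La missed the threshold with TMM scaling (-0.832). Without the 9 libraries under 2000 genes 14Lv minus 14La (1.1, also without the 6 shallowest) and the slope (-0.138) passed, while 8L minus 16La became 0.466, 10Lv minus 10La -0.0476 and 14Lv minus 12Lv -0.125. Without the 6 shallowest, 12Lv minus 12La became -0.219, 10La minus 12La -0.0253 and 10Lv minus 8L 0.422. TMM scaling gave -0.129 for 10Lv minus 10La and -0.0687 for 8L minus 10La, and a library size less ACOT9, PRL and CGA gave -0.0632 for 14Lv minus 12Lv. Leaving out each replicate gave -0.281 to 0.466 for 8L minus 16La, -0.784 to 0.393 for 16Lv minus 8L, -0.75 to 0.351 for 16Lv minus 16La, -0.501 to 0.53 for 10Lv minus 10La, -0.203 to 0.823 for 12Lv minus 12La and 0.587 to 1.1 for 14Lv minus 14La. It gave -0.0448 to 0.814 for 12La minus 14La, -0.0253 to 1.07 for 10La minus 12La, -0.47 to 0.616 for 8L minus 10La, -0.539 to 0.422 for 10Lv minus 8L, -0.707 to 0.253 for 12Lv minus 10Lv, -0.351 to 0.488 for 14Lv minus 12Lv, -0.579 to 0.522 for 16Lv minus 14Lv and -0.0581 to 0.00564 for the slope.

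Over all birds pooled, r of POMC was -0.196 with AGRP, -0.142 with CARTPT and -0.0497 with recovered reads in the CPM table, and 0.437 with PRL and -0.0191 with CGA in the count table. As deviations from group means these became 0.245 for AGRP, 0.0224 for recovered reads and 0.0242 for CGA. Without libraries that stand apart the deviations gave 0.34 for AGRP and 0.171 for CARTPT, and also without the 2 farthest birds 0.253 and 0.288. For PRL, r was -0.0118 without libraries that stand apart and -0.0309 also without the 2 farthest. Between tables r was 0.074 pooled and -0.0163 without the 2 farthest birds. The number of genes called per main comparison varied by over 1.5 times, from 0 to 22 across alternatives in the CPM table. In the count table the counts ran from 0 to 11 with the filter on low counts and from 23 to 1449 with none. With no filter 4 of 38 list members were also called among the 9 groups: AGRP, CRHR1, MRAP2 and NPY. They held only 10, 35, 11 and 32 counts, in 3, 11, 6 and 9 libraries. The share of all genes called in that comparison is not reported here, so these calls are not read as a result about the list.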
